A study of Mus musculus with 60 samples.

Results

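The monocyte subset genes comprised 10 genes of the 49315 in the deposited count tables of whole-blood RNA from mice. They were taken by symbol from a fixed list, and each symbol had 1 gene identifier. The classical genes were Ly6c2, F13a1, Vcan, Chil3 and Ms4a6c. The patrolling genes were Cx3cr1, Nr4a1, Ace, Treml4 and Spn. RNA-seq was performed on blood from 60 male CD2F1 mice aged 5 to 6 weeks, in 10 groups of 6, with each mouse bled once, terminally, into PAXgene tubes. The mice received vehicle (an aqueous methylcellulose and polyvinylpyrrolidone carrier) or BIO 300, an oral powder in which the isoflavone genistein is dispersed in amorphous form, 2 times daily for 6 days. Groups given vehicle or BIO 300 at 50, 100 or 200 mg/kg were bled on Day 0 (24 h from the final dose), and other groups with the same 4 treatments were bled on Day 1 (48 h from it). On Day 0, 2 more groups, one given vehicle and one 200 mg/kg BIO 300, received 9.2 Gy of cobalt-60 total body irradiation (TBI) and were bled 24 h later on Day 1. Mice were housed 3 to a cage, and all were of 1 strain and sex.

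Mouse blood monocytes fall into classical cells, which carry high Ly6C and CCR2, leave the marrow, and enter inflamed tissue, and patrolling cells, which carry low Ly6C and high CX3CR1 and crawl along the vessel wall. Patrolling cells derive largely from classical cells in the blood and need the orphan nuclear receptor NR4A1. Several of the genes that mark the subsets among monocytes are also expressed by other blood cells, such as F13a1 in platelets and Spn (CD43) and Ly6c2 in lymphocytes. In whole blood, fewer cells of a type and less RNA per cell cannot be told apart.

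Levels are given as CPM, which are counts relative to the library size, here adjusted over all 60 mice by the trimmed mean of M values (TMM), which equalizes libraries over genes that differ little. Total counts per mouse were between 15099415 and 45589415. All 10 genes passed the filter on low counts in every comparison, and the lowest count of a member in any mouse was 5, for Vcan, so that Vcan had the least depth. Blood was the labelled tissue, and 5 genes of all leukocytes summed to 1491 to 1739 CPM in vehicle mice on Day 1. Differences were tested with edgeR's quasi-likelihood test over all genes, and a gene was called when its Benjamini-Hochberg adjusted p was under 0.05 and its log2 fold change was over 1 in either direction. In 10 mice, at least 10 of 16 hepatocyte genes were above 10 CPM. In mouse 51 (vehicle plus TBI) and mouse 57 (200 mg/kg plus TBI) the 16 genes summed to 36662 and 13678 CPM. The median in the vehicle plus TBI group was 8.58 CPM. Results of the members that rest on these mice, other than correlations, are in part given with and without the 10 mice. The values of Treml4 after TBI, and of Chil3 and Cx3cr1 for TBI within 200 mg/kg, are not given without them. Genes of the red cell summed to a median of 456452 CPM at 200 mg/kg on Day 1 and 99215 CPM in vehicle mice on Day 1. These sums are on the TMM scale and are not shares of the counts of a library. Scaling by total counts lowered the fold changes of all 10 members at the 2 higher doses on Day 1.

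The 10 genes lie on 8 chromosomes of the mouse genome (GRCm38, GENCODE vM21 coordinates). Ly6c2, at chr15:75108158-75111970, encodes the small surface antigen Ly6C. Chil3, at chr3:106147554-106167564, encodes a secreted chitinase-like protein, and Ms4a6c, at chr19:11469366-11482192, a membrane protein of the MS4A family. F13a1, at chr13:36867178-37050244, encodes the A subunit of coagulation factor XIII, and Vcan, at chr13:89655312-89742509, the proteoglycan versican. Of the patrolling genes, Cx3cr1 at chr9:119901616-120069879 encodes the fractalkine receptor, Nr4a1 at chr15:101254269-101274795 a nuclear receptor, and Ace at chr11:105967945-105989964 angiotensin-converting enzyme. Treml4 at chr17:48264295-48275360 encodes a TREM-like receptor and Spn at chr7:127132232-127137823 the sialoglycoprotein CD43. Ms4a6c, Nr4a1, Ace and Treml4 lie on the plus strand and the other 6 genes on the minus strand.

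PU.1 is the factor on which the myeloid lineage depends, and the letters AGGAAGT, within which the core of its binding site lies, were searched on both strands of the 250 bases before each RefSeq start (GRCm38.p6). All 10 genes had an entry, 13 entries in all. The letters stood before a start of 5 members, Chil3, F13a1, Ly6c2, Ms4a6c and Spn. By entry, they stood in 6 of the 13 of the members and in 7.69% of the 32851 promoter entries. The letters TTGCNNAA of C/EBP factors, in 9.56% of entries, and AAAGGTCA of NR4A1, in 1.34%, stood in none of these windows of the members, which says only that those letters are not there. The windows of Chil3, Ms4a6c and Spn, which fell at 100 and 200 mg/kg on Day 1 and after TBI, and of F13a1, which rose in those comparisons, are shown 5′ to 3′ along the gene, with AGGAAGT or its reverse complement in capitals. They span chr3:106167565-106167814 for Chil3, chr19:11469118-11469367 for Ms4a6c, chr7:127137824-127138073 for Spn and chr13:37049214-37049463 for the downstream of 2 F13a1 starts.
Chil3: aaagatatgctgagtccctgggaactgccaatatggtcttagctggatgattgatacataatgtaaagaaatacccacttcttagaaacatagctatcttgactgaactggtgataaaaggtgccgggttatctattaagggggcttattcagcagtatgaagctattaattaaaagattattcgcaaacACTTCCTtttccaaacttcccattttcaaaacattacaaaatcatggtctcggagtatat
Ms4a6c: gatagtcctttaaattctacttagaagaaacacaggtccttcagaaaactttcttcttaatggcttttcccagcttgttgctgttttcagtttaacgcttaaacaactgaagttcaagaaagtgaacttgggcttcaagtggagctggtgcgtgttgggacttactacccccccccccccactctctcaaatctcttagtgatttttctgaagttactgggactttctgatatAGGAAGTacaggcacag
Spn: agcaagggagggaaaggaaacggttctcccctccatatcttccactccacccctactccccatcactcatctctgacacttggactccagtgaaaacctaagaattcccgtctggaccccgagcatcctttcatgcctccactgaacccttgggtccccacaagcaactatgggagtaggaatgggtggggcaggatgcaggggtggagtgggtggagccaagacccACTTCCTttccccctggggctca
F13a1: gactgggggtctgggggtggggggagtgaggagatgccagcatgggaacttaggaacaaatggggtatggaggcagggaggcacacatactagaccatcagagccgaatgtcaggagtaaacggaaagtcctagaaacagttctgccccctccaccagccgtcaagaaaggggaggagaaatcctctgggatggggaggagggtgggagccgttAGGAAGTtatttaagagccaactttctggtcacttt

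In vehicle mice on Day 1, the levels per kilobase of exon spanned a wide range. The median was 25.5 CPM per kb for Spn, 23.0 for F13a1, 15.9 for Ms4a6c, 10.1 for Chil3, 9.58 for Ace and 8.34 for Ly6c2. Below these came Treml4 at 7.21, Nr4a1 at 6.29, Cx3cr1 at 4.26 and Vcan at 0.262 CPM per kb, so neither subset was uniformly the more abundant. After TBI with vehicle, F13a1 led at 111 CPM per kb and Chil3 had 0.691, below every member but Vcan. Ms4a6c shares 49.6% of its 50-base transcript windows with the overlapping gene BE692007, which had between 19 and 3744 counts per mouse. Chil3 shares 16.9% with Chil4 and Ly6c2 shares 13.9% with Ly6c1. Reads from such windows can be left out of the counts or split between copies, so the absolute levels of these 3 genes are uncertain.

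**Figure D1:**
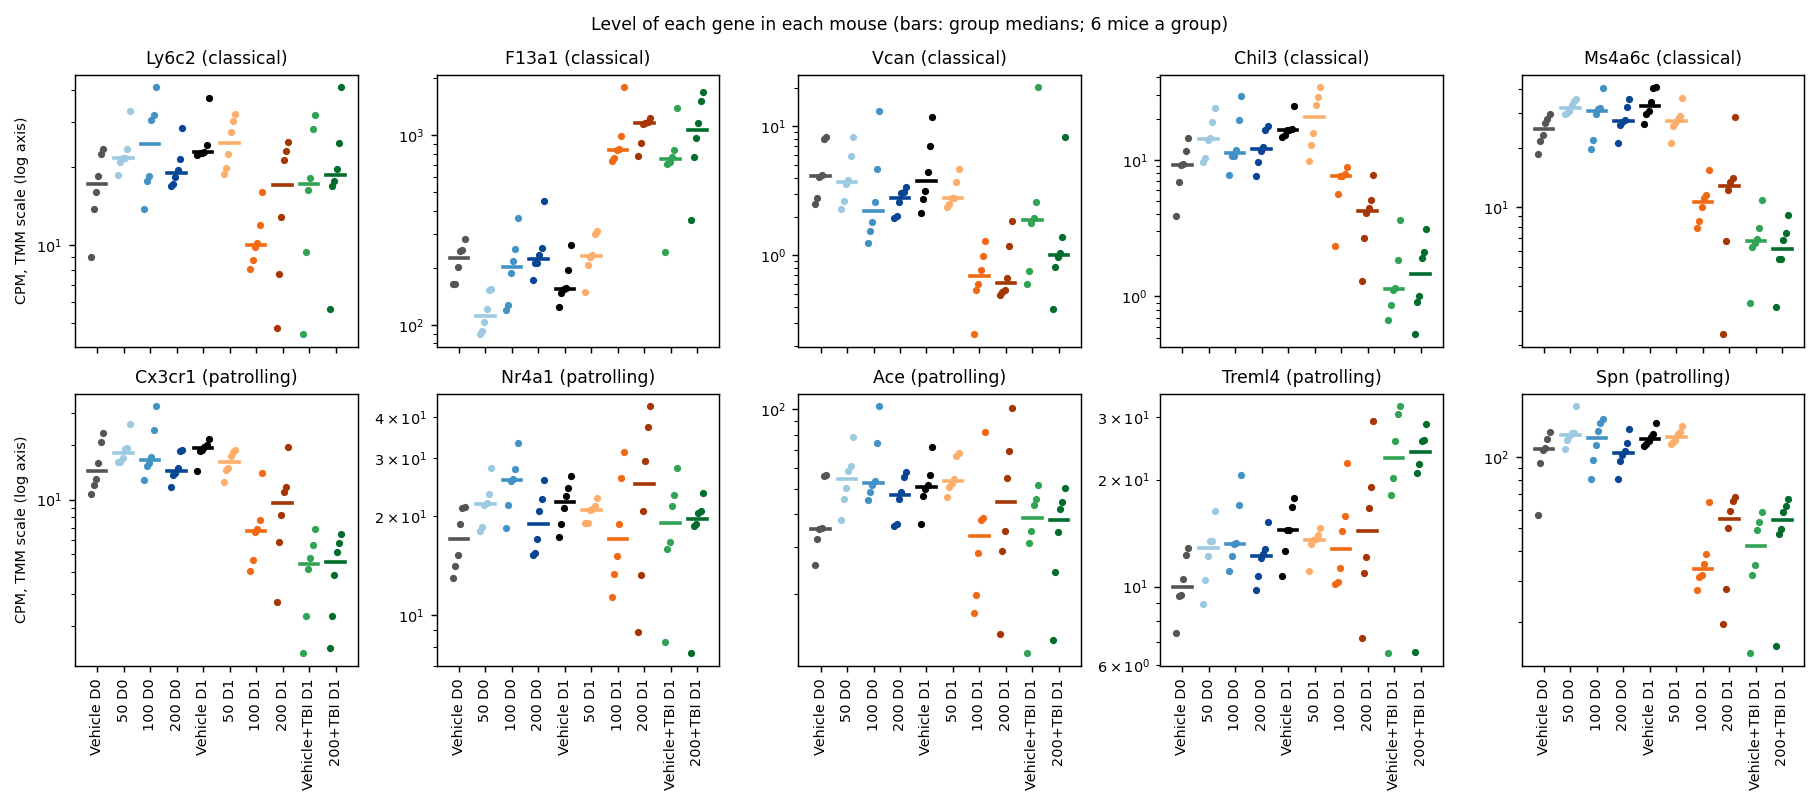
Level of each of the 10 genes in each mouse, as CPM on the TMM scale (log axis), by group (D0 and D1 are Day 0 and Day 1, the numbers are mg/kg of BIO 300), with bars at the group medians of 6 mice. F13a1 is higher, and Chil3, Ms4a6c and Spn are lower, in the 4 groups at the right than in vehicle mice on Day 1 for most mice, while Nr4a1, Ace and Treml4 overlap between groups.

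On Day 0, the question was whether BIO 300 alone changed these genes a day beyond the final dose. No member was called at any dose. At 50 mg/kg, 4.50% of all genes tested were called in either direction, whereas no gene was called at 100 mg/kg (0%) or at 200 mg/kg (0%). At 50, 100 and 200 mg/kg 7588, 726 and 2145 genes of 24485, 24000 and 23795 had an unadjusted p under 0.05 by edgeR, and DESeq2's Wald test called 2 and 2 genes at the 2 higher doses. Of the members, 5, 3 and 1 had an unadjusted p under 0.05 at 50, 100 and 200 mg/kg. The 3 at 100 mg/kg were all patrolling genes, Nr4a1 (0.57 ± 0.16), Ace (0.66 ± 0.24) and Treml4 (0.51 ± 0.16), each with an adjusted p of 1.00. Nr4a1 had 18.3, 25.7 and 33.3 CPM (lowest, median and highest), Ace 45.5, 52.7 and 103 CPM and Treml4 11.1, 13.2 and 20.6 CPM, and all 3 overlapped the vehicle mice, at 13.0, 17.0 and 21.2, 25.7, 35.3 and 56.5 and 7.41, 10.0 and 12.8 CPM. The 1 at 200 mg/kg was Vcan, at 1.94, 2.81 and 3.40 CPM against 2.51, 4.12 and 8.21 CPM, with a log2 fold change of -0.87 ± 0.30 (adjusted p = 0.546). The largest shift at 50 mg/kg was in F13a1. The 6 dosed mice had 89.2, 112 and 155 CPM (lowest, median and highest) and the vehicle mice had 164, 224 and 283 CPM. Every dosed mouse lay below every vehicle mouse, and the log2 fold change was -0.87 ± 0.18 (SE, adjusted p = 0.00798 by edgeR), under the fold limit. Of 7 platelet genes, 5 were called lower in this comparison, with a list median of -1.02. Ms4a6c was higher without overlap, at 29.8 to 35.4 CPM against 18.7 to 29.7 CPM, and its log2 fold change of 0.40 ± 0.11 (adjusted p = 0.0260) was also under the fold limit. Scaled by total counts, 4 members were called higher at 50 mg/kg, namely Chil3 (1.39), Ace (1.09), Ly6c2 (1.08) and Ms4a6c (1.04).

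On Day 1 no gene was called by edgeR at 50 mg/kg (0% of genes, a smallest adjusted p of 0.0231 in a gene under the fold limit, 4458 at an unadjusted p under 0.05, and 39 called by DESeq2). The median log2 fold change of the members there was -0.04, and 2 had an unadjusted p under 0.05. These were F13a1, at 149, 231 and 315 CPM and 0.47 ± 0.20 (adjusted p = 0.234), and Ms4a6c, at 21.3, 27.4 and 35.7 CPM and -0.27 ± 0.13 (adjusted p = 0.266), and both overlapped the vehicle mice. The 2 higher doses differed broadly. At 100 mg/kg, 48.8% of all genes were called, 18.2% higher and 30.6% lower, and of the 10 members 1 rose and 6 fell. At 200 mg/kg, 47.8% of genes were called, 17.3% higher and 30.5% lower, and 1 member rose and 4 fell. All 5 classical genes were called at 100 mg/kg and 4 at 200 mg/kg, against 2 and 1 of the 5 patrolling genes. The median log2 fold change was -1.32 over the classical and -0.41 over the patrolling genes at 100 mg/kg, and -1.29 and 0.04 at 200 mg/kg, beside -0.38 and -0.48 over all genes. Both doses were set against the same 6 vehicle mice.

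Among the classical genes, Vcan, which encodes an extracellular matrix proteoglycan, fell most. The mice had 0.245, 0.689 and 1.29 CPM (lowest, median and highest) at 100 mg/kg and 0.496, 0.606 and 1.86 at 200 mg/kg, against 2.12, 3.79 and 11.9 in vehicle mice. All 12 dosed mice lay below all 6 vehicle mice. The log2 fold changes were -2.77 ± 0.49 (adjusted p = 0.000201) and -2.50 ± 0.48 (adjusted p = 0.000442). Chil3, the chitinase-like protein of classical monocytes and neutrophil precursors, had 2.35, 7.62 and 8.79 CPM at 100 mg/kg and 1.30, 4.25 and 7.72 CPM at 200 mg/kg, against 14.7, 16.6 and 24.8 CPM in vehicle mice. Again no dosed mouse overlapped the vehicle mice, and the log2 fold changes were -1.32 ± 0.25 (adjusted p = 0.000418) and -1.96 ± 0.30 (adjusted p = 6.21e-05). Ms4a6c had 7.83, 10.6 and 15.4 CPM at 100 mg/kg, all below the 26.4 to 40.8 CPM of vehicle mice, and fell by 1.58 on the log2 scale (adjusted p = 2.65e-06). At 200 mg/kg it had 2.28, 12.9 and 28.8 CPM. Mouse 46, at 28.8 CPM, reached into the vehicle range, and the log2 fold change was -1.29 ± 0.38 (adjusted p = 0.00905).

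Ly6c2, whose product defines the classical subset by antibody, fell at 100 mg/kg, from 22.4, 22.9 and 37.3 CPM in vehicle mice to 8.11, 10.0 and 16.0 CPM, with no overlap and a log2 fold change of -1.16 ± 0.19 (adjusted p = 9.35e-05). At 200 mg/kg the mice were spread over 4.77 to 25.1 CPM, with 2 of 6 within the vehicle range, and the log2 fold change of -0.59 ± 0.32 (adjusted p = 0.122) did not pass. F13a1 went the other way. The mice had 733, 841 and 1801 CPM at 100 mg/kg and 774, 1155 and 1242 at 200 mg/kg, against 123, 155 and 264 in vehicle mice. Every dosed mouse was higher than every vehicle mouse, and the log2 fold changes were 2.58 ± 0.25 (adjusted p = 8.81e-07) and 2.70 ± 0.20 (adjusted p = 4.02e-08). All 7 platelet genes rose in both comparisons, with list medians of 3.13 and 3.23. The summed level of these 7 genes ranged over 14634 to 32648 CPM at 100 mg/kg and 1910 to 3855 CPM in vehicle mice. The part of platelets in the F13a1 result was not tested.

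Of the patrolling genes, Spn and Cx3cr1 fell at 100 mg/kg. Spn had 27.3, 33.5 and 64.5 CPM at 100 mg/kg and 19.6, 54.7 and 67.6 CPM at 200 mg/kg, against 111, 120 and 140 CPM in vehicle mice, without overlap. Its log2 fold changes were -1.61 ± 0.19 (adjusted p = 6.09e-06) and -1.25 ± 0.25 (adjusted p = 0.000663). Spn is also a surface protein of T cells, and all 8 genes of a T-cell list fell in both comparisons (list medians -1.55 and -1.52). The 8 genes summed to 89.6 to 176 CPM at 100 mg/kg and 380 to 480 CPM in vehicle mice, and their part in the Spn result was not tested. Cx3cr1 had 4.02, 6.74 and 14.1 CPM at 100 mg/kg, against 14.4, 19.2 and 21.6 CPM in vehicle mice. All 6 lay below the lowest vehicle mouse, with a log2 fold change of -1.29 ± 0.26 (adjusted p = 0.000634). At 200 mg/kg its log2 fold change of -0.85 ± 0.32 (adjusted p = 0.0319) was under the fold limit, and without mouse 46 (19.5 CPM) it was -1.17 and called. The part of lymphocytes in the Cx3cr1 result was not tested either.

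Nr4a1, Ace and Treml4, the other 3 patrolling genes, did not pass at either dose. Nr4a1 had 11.3, 17.0 and 31.3 CPM at 100 mg/kg and 8.89, 25.0 and 43.1 at 200 mg/kg, against 17.3, 22.1 and 26.5 in vehicle mice. The dosed mice spread around the vehicle mice on both sides, and the log2 fold changes were -0.11 ± 0.23 and 0.31 ± 0.31. Ace had 16.9, 33.2 and 81.8 CPM at 100 mg/kg and 14.1, 44.7 and 102 CPM at 200 mg/kg, against 36.8, 50.7 and 72.1 CPM, and log2 fold changes of -0.41 ± 0.33 and 0.04 ± 0.35. Treml4 had 10.1, 12.8 and 22.2 and 7.16, 14.3 and 29.2 CPM, against 10.7, 14.4 and 17.7 CPM, and log2 fold changes of 0.03 ± 0.20 and 0.22 ± 0.27. The 3 genes were spread more widely at 200 mg/kg than in vehicle mice, and there mouse 46 was highest and mouse 47 lowest for each of them. Their fold changes depend on the scaling. With total counts, all 3 were called lower at both doses, with log2 fold changes of -1.47, -1.73 and -1.33 at 100 mg/kg and -1.17, -1.42 and -1.27 at 200 mg/kg. Under that scaling the median of all genes was -1.76 and -1.96, and the share of calls that were higher was 6.24% and 4.42%, against 37.3% and 36.2% with TMM. F13a1 remained called higher with total counts, at 1.17 and 1.16.

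**Figure D2:**
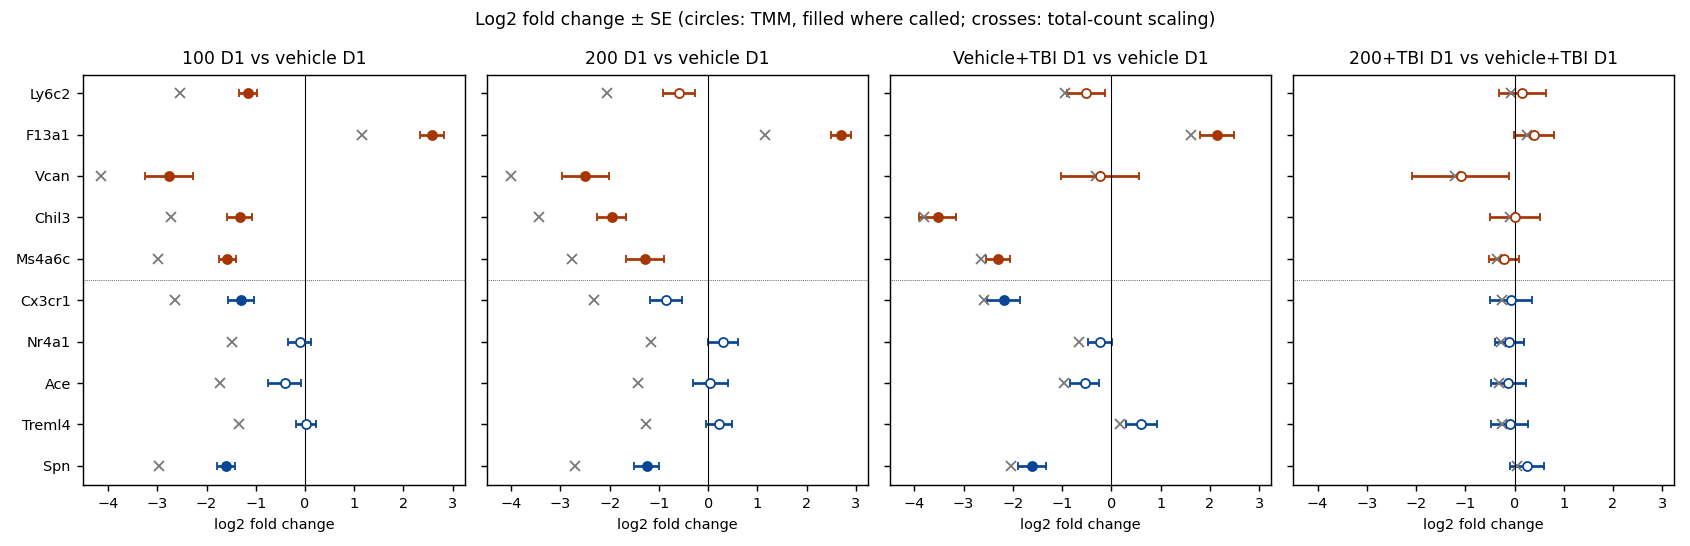
Log2 fold change (x axis) of each gene (classical in brown above the dotted line, patrolling in blue below) in 4 comparisons on Day 1. Circles with bars are TMM estimates with their SE, filled where the gene was called, and crosses are the same contrasts scaled by total counts. At 100 and 200 mg/kg the crosses lie over 1 log2 unit to the left of the circles, while F13a1 stays above 0 on both scales.

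TBI was compared with unirradiated vehicle mice of Day 1 and, as a second reference, of Day 0. Against Day 1, 36.0% of all genes were called, 19.6% higher and 16.4% lower, and 1 member rose and 4 fell. Against Day 0, 26.9% were called, 15.1% higher and 11.8% lower, and 2 members rose and 4 fell. The irradiated mice are the same in both comparisons. With total counts the share of calls that were higher against Day 1 was 35.5%, against 54.4% with TMM, and the members called were the same number. Chil3 fell most, to 0.669, 1.13 and 3.63 CPM, far below the 14.7 to 24.8 CPM of Day 1 and just below the 3.89 to 14.3 CPM of Day 0. The log2 fold change was -3.53 ± 0.38 against Day 1 (adjusted p = 2.2e-05) and -2.53 ± 0.40 against Day 0 (adjusted p = 0.000461). Ms4a6c had 3.28, 6.78 and 10.9 CPM, with no overlap with either vehicle group, and log2 fold changes of -2.31 ± 0.24 (adjusted p = 1.79e-05) and -1.76 ± 0.22 (adjusted p = 0.000126). F13a1 rose to 241, 747 and 1386 CPM, a log2 fold change of 2.14 ± 0.35 against Day 1 (adjusted p = 0.000327). Mouse 51 alone, at 241 CPM, lay within the vehicle range, and all 7 platelet genes rose in this comparison too.

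The patrolling genes split after TBI. Cx3cr1 had 1.41, 4.43 and 6.92 CPM, below all mice of both vehicle groups, and fell by 2.19 against Day 1 on the log2 scale (SE 0.34, adjusted p = 0.000223). Spn had 14.7, 42.2 and 58.6 CPM and fell by 1.61 (SE 0.28, adjusted p = 0.000528), with no overlap with Day 1. All 8 T-cell genes, all 8 B-cell genes and 4 of 7 NK-cell genes fell in the same comparison. Treml4 had 6.48, 22.9 and 32.2 CPM, and 5 of the 6 irradiated mice were higher than every vehicle mouse of either day. Its log2 fold change was 1.22 ± 0.34 against Day 0 (adjusted p = 0.0142) and 0.60 ± 0.31 against Day 1 (adjusted p = 0.126), and with total counts it was 0.94 against Day 0 and not called. Nr4a1 (-0.23 ± 0.25, adjusted p = 0.457) and Ace (-0.55 ± 0.29, adjusted p = 0.140) did not pass against Day 1. Nr4a1 had 8.28, 19.0 and 27.9 CPM and Ace 11.9, 38.9 and 51.5 CPM, and in both the vehicle mice of Day 1 overlapped them.

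The value of Vcan after TBI rested on mouse 51. In the irradiated vehicle mice Vcan had 0.602, 1.88 and 20.2 CPM, where the highest value was that of mouse 51, and its log2 fold change against Day 1 was -0.23 ± 0.79 (adjusted p = 0.821). Without mouse 51 it was -1.75 and was called lower, and without all mice that held liver transcripts it was -1.83. Against Day 0 the value was -0.16, and -1.59 and called without mouse 51. Mouse 51 was also the lowest of the 6 for Ly6c2, F13a1, Cx3cr1, Nr4a1, Ace, Treml4 and Spn, and the highest for Chil3 and Ms4a6c as well as Vcan. Without the 10 mice that held liver transcripts, Chil3 (-3.91), Ms4a6c (-2.44), Cx3cr1 (-1.90), Spn (-1.33) and F13a1 (2.42) remained called against Day 1. Ly6c2 had 4.51, 17.2 and 31.9 CPM and a log2 fold change of -0.51 ± 0.38 (adjusted p = 0.282), with the irradiated mice below or within the vehicle range.

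Whether 200 mg/kg BIO 300 altered these genes in irradiated mice was tested against irradiated vehicle mice. No gene was called (0% of genes, 688 at an unadjusted p under 0.05 by edgeR and 0 called by DESeq2), and no member had an unadjusted p under 0.05. The medians in BIO 300 and vehicle mice were 1.46 and 1.13 CPM for Chil3, 6.15 and 6.78 CPM for Ms4a6c, and 4.49 and 4.43 CPM for Cx3cr1. They were 23.9 and 22.9 CPM for Treml4, 54.4 and 42.2 CPM for Spn, and 1066 and 747 CPM for F13a1. Every member overlapped between the 2 groups. The log2 fold changes ran from -1.10 ± 0.98 for Vcan to 0.40 ± 0.41 for F13a1, and their SE of 0.29 to 0.98 set the size of a difference that could be seen. Without the mice that held liver transcripts Vcan was at -0.69, without mouse 51 alone it was at 0.54, without mouse 57 alone at -2.41, and it was called in none of these. Between vehicle mice of Day 1 and Day 0, too, no gene was called (0% called, 3007 at an unadjusted p under 0.05, 37 called by DESeq2), though 5 members had an unadjusted p under 0.05. The largest of these was Chil3, at 14.7, 16.6 and 24.8 CPM on Day 1 and 3.89, 9.19 and 14.3 CPM on Day 0, without overlap and with a log2 fold change of 0.92 ± 0.25 (adjusted p = 0.210).

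Within 200 mg/kg BIO 300, irradiated mice were compared with unirradiated mice of Day 1. Of all genes 20.6% were called, 5.73% lower, and of the members Chil3 and Cx3cr1 fell. Chil3 had 0.529, 1.46 and 3.10 CPM with TBI and 1.30, 4.25 and 7.72 CPM without, and a log2 fold change of -1.43 ± 0.47 (adjusted p = 0.0382). Cx3cr1 had 1.51, 4.49 and 6.43 and 2.71, 9.61 and 19.5 CPM, and a log2 fold change of -1.28 ± 0.45 (adjusted p = 0.0483). Both overlapped between the groups, and both calls were close to the threshold. Without the mice that held liver transcripts, 3 members were called. Leaving out 1 mouse at a time left between 0 and 3 members called, with 0 called without mouse 43, 44, 45, 46, 48, 55, 58 or 60. With total counts the values of Chil3 and Cx3cr1 were -0.46 and -0.54 and neither was called, while Vcan (2.47) and Treml4 (1.18) were called higher, and the median of all genes was 1.31 in place of 0.41.

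The differences between the days, and between irradiated and unirradiated mice, were tested as interactions in fits of 4 groups. For 50 mg/kg, 7.69% of genes differed in their response between Day 1 and Day 0, 6.73% with the higher response on Day 1, and of the members F13a1 did, by 1.35 ± 0.29 (adjusted p = 0.00168). For 100 mg/kg, 42.0% of genes differed, 15.7% higher and 26.3% lower on Day 1, and 8 members did, F13a1 higher and Ly6c2, Vcan, Chil3, Ms4a6c, Cx3cr1, Ace and Spn lower. The difference of Ace was -1.07, and -0.78 and not called without the mice that held liver transcripts. For 200 mg/kg, 36.7% of genes differed, 13.1% higher and 23.6% lower, and 5 members did, F13a1 higher and Vcan, Chil3, Ms4a6c and Spn lower. The effect of 200 mg/kg on Day 1 differed between irradiated and unirradiated mice in 29.6% of genes, 19.5% higher and 10.0% lower with TBI, and in 3 members. F13a1 differed by -2.07 ± 0.45 (adjusted p = 0.00149), Chil3 by 2.20 ± 0.62 (adjusted p = 0.00927) and Spn by 1.73 ± 0.45 (adjusted p = 0.00486). In each of these 3 genes the unirradiated 200 mg/kg mice and the irradiated vehicle mice had both moved from vehicle Day 1 in the same direction, and the irradiated 200 mg/kg mice overlapped the irradiated vehicle mice.

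Other genes of the monocyte subsets were counted by list. Of all genes tested, 30.6% were called lower and 18.2% higher at 100 mg/kg on Day 1, and 30.5% and 17.3% at 200 mg/kg. After TBI, against Day 1, 16.4% were called lower and 19.6% higher. The list counts were not tested against these shares. Of 10 further classical genes, 4 fell and 0 rose at 100 mg/kg on Day 1, the same numbers as at 200 mg/kg, and after TBI 2 fell and 3 rose against Day 1. Fn1, which encodes fibronectin, changed by -1.84 and -2.22 at the 2 doses. Ccr2, the receptor by which classical monocytes leave the marrow, changed by -1.57 and -1.24 at the 2 doses and by -2.53 after TBI, and Ms4a4c by -1.77, -1.60 and -3.37. Hp, which encodes haptoglobin, a product of neutrophil precursors and of the liver, rose after TBI (4.32), as did Mgst1 (2.98) and Ifitm6 (1.15). Without the mice that held liver transcripts these 3 values were 3.08, 1.17 and 1.16 and remained called, Ccr2 and Ms4a4c were at -2.72 and -3.15, and Fn1 and Lyz1, at 3.16 and 1.84 and not called with all mice, were called lower (-3.09 and -1.14), an alternative added after the data were seen. Of 12 further patrolling genes, 3 rose and 1 fell at each dose, and 4 rose and 1 fell after TBI. Cd36, a scavenger receptor that platelets also carry, changed by 1.61 and 1.91, and Fcgr4, an Fc receptor also carried by neutrophils, by 2.30 after TBI. Itgal, an integrin chain of most leukocytes, rose in all 3 comparisons (1.33, 1.54 and 1.60), and so did Cd274 (1.21, 1.29 and 2.02). Pou2f2 fell in all 3 (-1.56, -1.50 and -2.51). All 8 genes of the B-cell list also fell in all 3 (list medians -1.50, -1.73 and -3.49), and their part in the Pou2f2 result was not tested.

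Of 8 genes shared by all monocytes, 3 fell at each of the 2 doses and 3 rose after TBI. Of 8 tissue macrophage genes, 2 were called higher after TBI against Day 1, with a list median of 4.53. These genes summed to 2.13 to 969 CPM in the vehicle plus TBI group, with a median of 4.00 CPM. Their part in the rise of the monocyte genes was not tested. Among the other lists, only the further classical genes were fitted without the mice that held liver transcripts. Csf1r, the receptor for the main growth factor of monocytes, had a log2 fold change of -0.73 ± 0.22 at 100 mg/kg (adjusted p = 0.0107, under the fold limit) and rose by 1.18 ± 0.21 after TBI (adjusted p = 0.000659). Its ligand Csf1 had medians of 21.7 CPM in vehicle mice on Day 1 and 96.5 CPM after TBI, a log2 fold change of 2.03 ± 0.32 (adjusted p = 0.000267). The ligand of CX3CR1, Cx3cl1, was nearly absent from blood RNA, with 0 to 6 counts per mouse in vehicle mice on Day 1. Among 7 regulators of monocyte fate, 2 rose and 1 fell at 100 mg/kg, and 1 rose and 1 fell at 200 mg/kg. After TBI 3 rose and 1 fell, with a list median of 0.83. The 1 that fell after TBI was Irf8, which promotes classical monocytes and dendritic cells, by 3.18 on the log2 scale (adjusted p = 7.6e-07). All 8 B-cell genes fell there too, and their part in the Irf8 result was not tested. Zeb2 rose at 100 mg/kg (1.51), at 200 mg/kg (1.55) and after TBI. Of 8 neutrophil genes, 6 rose and 1 fell after TBI, 2 rose at 100 mg/kg, and none was called at 200 mg/kg.

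The members followed different cell-type lists from mouse to mouse. Pearson's r was taken over 60 mice between log2(CPM + 1) of a member and the mean of a list without that member, as a description, since the mice share group effects and scaling. F13a1 had r = 0.99 with the platelet list, and 0.97 after the group means were removed. Its r with the further classical genes was -0.37 (-0.59 without group means). Without group means, F13a1 also had r of -0.59 with the tissue macrophage genes and -0.50 with the hepatocyte genes. No r was taken without the mice that held liver transcripts. Spn had r = 0.96 with the T-cell list and 0.92 without group means. Ly6c2 had its highest r without group means with the NK-cell list (0.83) and the T-cell list (0.77), and -0.03 with the further classical genes.

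**Figure D3:**
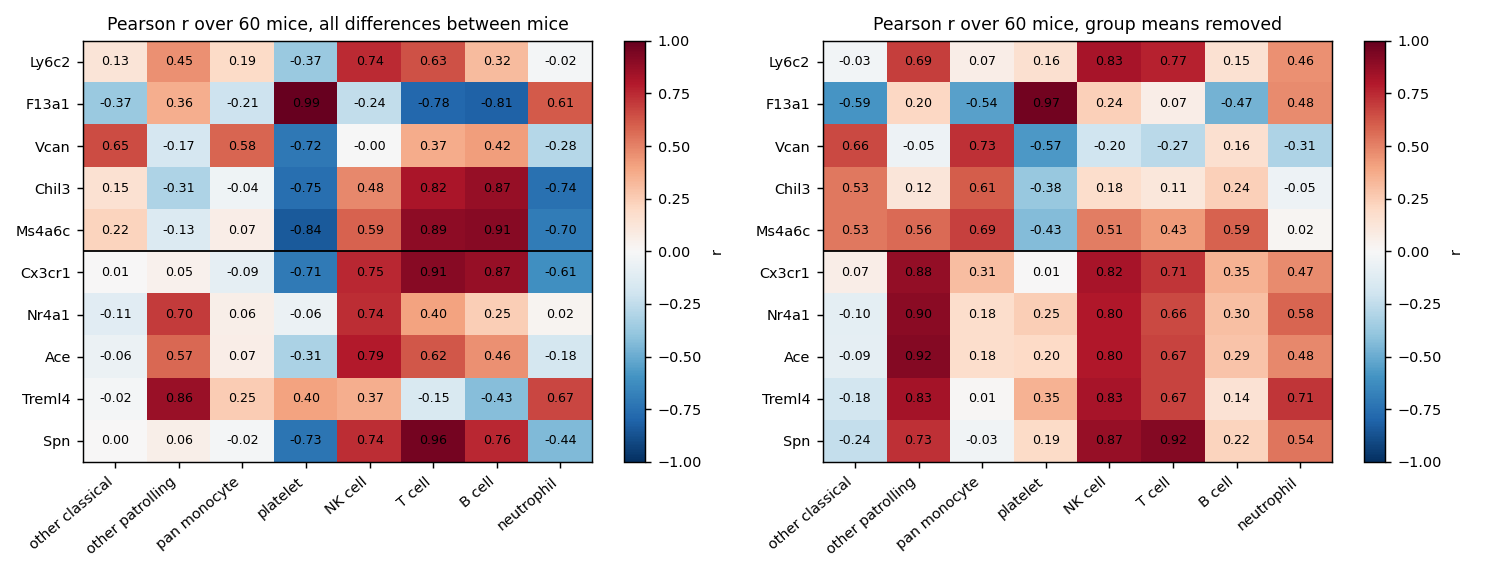
Pearson's r over 60 mice of each member (rows, classical above the line and patrolling below) with the mean log2(CPM + 1) of 8 gene lists (columns), over all differences between mice (left) and with the group means removed (right). With group means removed, Cx3cr1, Nr4a1, Ace and Treml4 have r of 0.83 to 0.92 with the further patrolling genes, and F13a1 has 0.97 with the platelet genes.

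**Figure D4:**
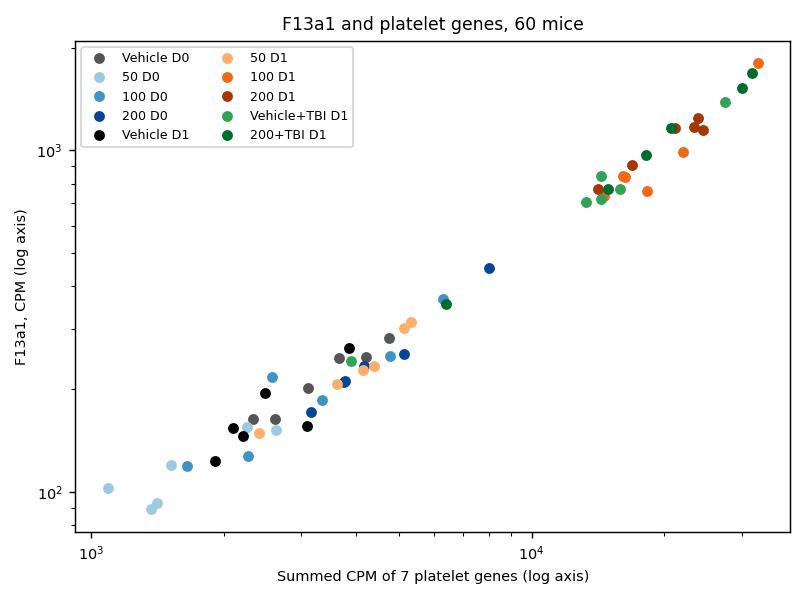
F13a1 (CPM, log axis) against the summed CPM of 7 platelet genes (log axis) in the 60 mice, coloured by group. The mice lie along 1 line, from the 50 mg/kg Day 0 mice at the lower left to the 100 and 200 mg/kg Day 1 mice and most irradiated mice at the upper right.

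Several of the patrolling genes moved together within groups. With group means removed, the r with the 12 further patrolling genes was 0.92 for Ace, 0.90 for Nr4a1, 0.88 for Cx3cr1 and 0.83 for Treml4, and 0.73 for Spn. With 5 genes of all leukocytes it was 0.73, 0.81, 0.74, 0.87 and 0.88 in the same order, higher than with the patrolling genes for Treml4 and Spn. Ace, Nr4a1, Cx3cr1 and Treml4 had r of 0.80, 0.80, 0.82 and 0.83 with the NK-cell list. Of the classical genes, Vcan, Chil3 and Ms4a6c had r of 0.66, 0.53 and 0.53 with the further classical genes, and 0.73, 0.61 and 0.69 with the genes of all monocytes. Ms4a6c also had 0.56 with the further patrolling genes, 0.67 with the regulators and 0.59 with the B-cell list. Vcan had 0.70 with the tissue macrophage genes and 0.50 with the hepatocyte genes. Across all differences between mice, Ms4a6c and Cx3cr1, of different subsets, had r = 0.90, Cx3cr1 and Spn 0.91, and F13a1 and Ms4a6c, both classical, -0.84. Over the same differences, r with the B-cell and T-cell lists was 0.91 and 0.89 for Ms4a6c and 0.87 and 0.82 for Chil3. Cx3cr1 had r of 0.91 with the T-cell list and 0.05 with the further patrolling genes. Among 6727 genes with a mean of at least 10 CPM, those most like the mean of the classical genes were Ccr2 (r = 0.90), Tifab, Ptpro, Elmo2 and Cd48 (r down to 0.85). Those most like the mean of the patrolling genes were Prf1 (r = 0.90), which encodes perforin, Sash3, Ear2, Coro1a and Cyfip2 (r down to 0.85).

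Classical was then set against patrolling as a whole, by the mean log2(CPM + 1) of the 5 classical genes minus that of the 5 patrolling genes in each mouse. The group medians of this difference lay between -0.57 (200 mg/kg plus TBI) and -0.10 (100 mg/kg on Day 1), and the mice of every group overlapped those of vehicle Day 1. In vehicle mice on Day 1 the difference was -0.31 ± 0.29 (SD, n = 6). It was -0.16 ± 0.40 at 100 mg/kg, -0.42 ± 0.35 at 200 mg/kg and -0.35 ± 0.75 after TBI with vehicle, all within 1 SD of the vehicle value. This did not hold without Chil3 and Nr4a1, where the difference was -0.30 ± 0.31 in vehicle mice, 0.15 at 100 mg/kg, 0.043 at 200 mg/kg, 0.30 after TBI with vehicle and 0.26 after TBI with BIO 300, so that the last 4 lay above the vehicle mean by more than 1 SD and had turned in sign. Nor did it hold with a pseudocount of 0.1. There 200 mg/kg on Day 1 was at -0.67 against -0.35 ± 0.32 in vehicle mice, below by more than 1 SD. F13a1 was kept in the classical mean throughout, and no version without it was made. It was called higher at 100 mg/kg (2.58), at 200 mg/kg (2.70) and after TBI (2.14), and had r = 0.99 with the platelet list. Its part in the difference was not tested. The median of each set alone was lower at 100 and 200 mg/kg on Day 1 and after TBI with vehicle than in vehicle mice. The median of the classical mean was 4.74 in vehicle mice, 4.08 at 100 mg/kg, 4.22 at 200 mg/kg and 3.89 after TBI. The median of the patrolling mean was 5.10, 4.24, 4.70 and 4.43 in the same groups. The spread of the difference was widest after TBI, where mouse 51 had 1.11 and mouse 57 0.86. Without the mice that held liver transcripts the mean was -0.71 ± 0.24 (n = 4) after TBI with vehicle and -0.62 ± 0.13 (n = 5) after TBI with BIO 300, against -0.31 ± 0.33 (n = 5) in vehicle mice on Day 1. Of these, the irradiated vehicle mice lay below the Day 1 vehicle mean by more than its SD, and the irradiated BIO 300 mice did not.

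**Figure D5:**
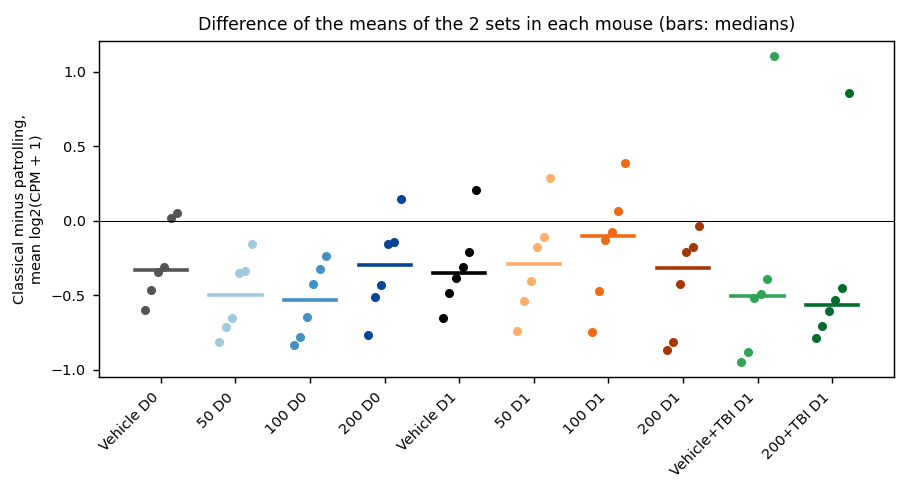
Mean log2(CPM + 1) of the 5 classical genes minus that of the 5 patrolling genes (y axis) in each mouse, by group (x axis), with bars at the medians. The medians lie between -0.57 and -0.10, and the 2 highest points are mice 51 and 57.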

How the data were processed

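Whole-blood RNA from 60 mice was sequenced in 10 groups of 6. The labels of the samples name poly(A) selection, whereas the methods of the study name a stranded kit that removes ribosomal and globin RNA. Per the labels, the authors used Trimmomatic 0.36 for trimming, STAR 2.5.2b for alignment (GRCm38), Subread 1.5.2 for counts per gene, and DESeq2. The annotation release was not given in the sources used here. The deposited count tables hold whole, unnormalized counts for 49315 genes. The deposited result tables hold normalized signal, the counts divided by the authors' size factors, which served only to check the columns, and the gene symbols. Their fold changes and p-values were not used. Where tables repeat a mouse, its counts were the same, and all columns were mapped to a mouse. Across 1770 library pairs the lowest chi-square per gene came to 10.3, and each library was counted as 1 sample.

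The 10 members and the other lists were chosen with earlier results of these data known. Each comparison was fitted on its own 12 mice (24 for interactions) with R 4.3.3 and edgeR 4.0.16 (glmQLFit and glmQLFTest after estimateDisp), with TMM, on genes with at least 10 counts summed. p-values were adjusted by Benjamini-Hochberg over all genes tested, and all tests were two-sided. The SE is the log2 fold change divided by the square root of F. CPM were scaled over all 60 mice, and the pseudocount for log2 values was 1. The methods were tested on simulated counts. DESeq2 1.42.0, other scalings and filters, the parity of the animal number, the mice with liver transcripts and each mouse left out in turn were tried as alternatives. Gene coordinates came from GENCODE vM21, and promoter sequences from RefSeq (GRCm38.p6). The genes named were the 10 members, at most 5 of each other list, chosen by the size of their change among those called or by role, and the 5 genes most like each set. Depth limits precision mainly for Vcan, and replicate mice, not counting error, set the SE. Replicates were separate mice. The values of 1 gene of the lists are not reported here.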

Additional observations from a re-analysis of the deposited data

Results flagged for a closer look

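In 13 of 100 sets of 6 mice (10 genes in 10 groups, on the log2(CPM + 1) scale), 1 mouse stood apart from the other 5 by Dixon's criterion, which chance meets in about 1 set in 20. The flags came from 7 mice. The sets are not independent, since all 10 genes were read in the same mice, so their number cannot be set against that rate. Mouse 51 of the vehicle plus TBI group was highest for Vcan (20.2 CPM against 0.602 to 2.59 CPM) and lowest for Ace (11.9 CPM against 31.1 to 51.5 CPM) and Treml4 (6.48 CPM against 18.1 to 32.2 CPM). Mouse 57 of the 200 mg/kg plus TBI group was highest for Vcan (8.34 CPM against 0.382 to 1.39 CPM) and lowest for Nr4a1 (7.63 CPM against 18.6 to 23.4 CPM), Treml4 (6.54 CPM against 20.8 to 28.7 CPM) and Spn (15.9 CPM against 47.5 to 66.5 CPM). Both mice are among the 10 that held liver transcripts, and so is mouse 17, which was lowest of the vehicle Day 0 group for Spn (56.9 CPM against 95.1 to 128 CPM). In the 100 mg/kg Day 1 group, mouse 42 was highest for F13a1 (1801 CPM against 733 to 991 CPM) and lowest for Chil3 (2.35 CPM against 5.60 to 8.79 CPM). In the vehicle Day 1 group, mouse 25 was highest for Ly6c2 (37.3 CPM against 22.4 to 24.5 CPM), mouse 27 was highest for Chil3 (24.8 CPM against 14.7 to 16.9 CPM) and mouse 26 was lowest for Cx3cr1 (14.4 CPM against 18.6 to 21.6 CPM). Why these mice stood apart was not tested.

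The response to BIO 300 differed between Day 1 and Day 0 by edgeR's interaction test, with the difference of log2 fold changes (Day 1 minus Day 0) given in parentheses. It differed at 50 mg/kg for F13a1 (1.35). At 100 mg/kg it differed for F13a1 (2.62), Ly6c2 (-1.74), Vcan (-2.55), Chil3 (-2.04), Ms4a6c (-1.83), Cx3cr1 (-1.62), Ace (-1.07) and Spn (-1.81). At 200 mg/kg it differed for F13a1 (2.47), Vcan (-1.62), Chil3 (-2.43), Ms4a6c (-1.51) and Spn (-1.30). The response to 200 mg/kg on Day 1 differed between irradiated and unirradiated mice (irradiated minus unirradiated) for F13a1 (-2.07), Chil3 (2.20) and Spn (1.73).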

How the results depend on the processing

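Of 3330 values of single members under an alternative, 3095 kept their direction and their side of the threshold, 44 passed it where the reported value did not, 45 no longer passed it and 146 changed sign. Of the last, 141 were called in neither fit. The scaling mattered most. Scaled by total counts, the number of members called was 4 in place of 0 at 50 mg/kg on Day 0, 10 in place of 5 at 200 mg/kg on Day 1, 9 in place of 1 for the interaction with day at 50 mg/kg, 10 in place of 5 for that at 200 mg/kg, and 5 in place of 3 for the interaction with TBI. The 5 sign changes that involved a call, all with total counts, were Treml4 at 100 mg/kg on Day 1 (-1.33), Nr4a1 (-1.17), Ace (-1.42) and Treml4 (-1.27) at 200 mg/kg on Day 1, and Nr4a1 in the interaction with day at 200 mg/kg (-1.12). Their values with TMM were not called, and TMM and total counts differ by construction where a few genes take a larger share of the reads. Whether that lies behind these sign changes was not tested. Over all genes, total counts called 2870 genes in place of 1103 at 50 mg/kg on Day 0 (89.3% of them higher in place of 2.81%), 9323 in place of 4873 for TBI within 200 mg/kg (97.6% in place of 72.3%), 10577 in place of 2025 for the interaction with day at 50 mg/kg (3.73% in place of 87.5%), and 12208 in place of 7945 for that with TBI (96.0% in place of 66.1%). The share of calls that were higher was 5.87% in place of 37.4% and 4.37% in place of 35.7% for the interactions with day at 100 and 200 mg/kg. With filterByExpr, 7577 genes were called in place of 11563 at 100 mg/kg on Day 1, and 11 in place of 0 at 50 mg/kg on Day 1, where no filter beyond 1 count gave 3. For TBI within 200 mg/kg, where 2 members were called, DESeq2's size factors gave 1, no filter gave 0, parity gave 0, and leaving out each mouse gave 0 to 3. For the interaction with TBI, 5 members were called without the mice that held liver transcripts, and leaving out each mouse gave 3 to 5 (5 without mouse 51, where Vcan and Ms4a6c were added). For the interaction with day at 200 mg/kg it gave 4 (without mouse 27) to 7 (without mouse 46), and at 100 mg/kg 7 to 8, where the call of Ace was lost without any one of 11 mice. The classical minus patrolling difference without Chil3 and Nr4a1 was 0.043 in place of -0.42 at 200 mg/kg on Day 1 and 0.26 in place of -0.37 at 200 mg/kg plus TBI, with 0.15 at 100 mg/kg on Day 1 and 0.30 after TBI with vehicle, and the cause was not tested. Fn1 and Lyz1, with values of 3.16 and 1.84 after TBI, were at -3.09 and -1.14 and called without the mice that held liver transcripts, an alternative chosen after seeing the data. No paired analysis was possible because no animal number is shared between groups. The log2 fold changes that changed sign without a call follow by alternative. With total counts they were Vcan (0.58) at 50 mg/kg Day 0, Vcan (0.0095) at 100 mg/kg Day 0, Ly6c2 (-0.0013), F13a1 (-0.062), Ms4a6c (-0.012), Nr4a1 (-0.053), Ace (-0.023) and Spn (-0.18) at 200 mg/kg Day 0, Ly6c2 (-0.33), Chil3 (-0.032), Ace (-0.19) and Spn (-0.28) at 50 mg/kg Day 1, Ly6c2 (-0.097), Vcan (0.088) and Nr4a1 (-0.024) for TBI against Day 0, Ly6c2 (-0.070) and Chil3 (-0.093) for BIO 300 within TBI, F13a1 (0.72), Nr4a1 (0.23) and Ace (0.13) for TBI within 200 mg/kg and Nr4a1 (0.90) and Treml4 (1.01) for the interaction with TBI. Without the mice that held liver transcripts they were F13a1 (0.084) at 100 mg/kg Day 0, Spn (-0.044) at 200 mg/kg Day 0, Ly6c2 (-0.030) at 50 mg/kg Day 1, Nr4a1 (0.0084) for TBI against Day 1, Ace (0.035) for TBI against Day 0, F13a1 (0.071) and Vcan (-0.11) for TBI within 200 mg/kg and Ace (-0.084) for the interaction with TBI. With no filter they were Ly6c2 (-0.00034) at 50 mg/kg Day 1 and F13a1 (0.065) for TBI within 200 mg/kg. With parity they were Ly6c2 (-0.021) at 50 mg/kg Day 1, Treml4 (-0.020) at 100 mg/kg Day 1, Ace (-0.16) at 200 mg/kg Day 1 and Chil3 (-0.013) for BIO 300 within TBI. With filterByExpr they were Chil3 (-0.0012) for BIO 300 within TBI, Spn (-0.0069) for TBI within 200 mg/kg and Treml4 (0.0067) for the interaction with day at 200 mg/kg. With DESeq2's size factors they were F13a1 (0.0014) for TBI within 200 mg/kg, Treml4 (0.021) for the interaction with day at 200 mg/kg and Ace (-0.046) for the interaction with TBI. With DESeq2 they were F13a1 (0.0014) for TBI within 200 mg/kg, Treml4 (0.023) for the interaction with day at 200 mg/kg and Ace (-0.047) for the interaction with TBI. Leaving out each mouse gave ranges across 0 at 50 mg/kg Day 0 Vcan -0.43 to 0.056, at 100 mg/kg Day 0 F13a1 -0.25 to 0.089, at 200 mg/kg Day 0 Cx3cr1 -0.14 to 0.088 and Spn -0.073 to 0.12, at 50 mg/kg Day 1 Ly6c2 -0.090 to 0.14, at 100 mg/kg Day 1 Treml4 -0.17 to 0.11 and Nr4a1 -0.32 to 0.015, at 200 mg/kg Day 1 Ace -0.29 to 0.24 and Treml4 -0.050 to 0.37. Likewise they crossed 0 for TBI against Day 1 Vcan -1.75 to 0.15, for TBI against Day 0 Vcan -1.59 to 0.12, Ace -0.25 to 0.12 and Ly6c2 -0.069 to 0.35, for BIO 300 within TBI Chil3 -0.34 to 0.50, Ly6c2 -0.14 to 0.38, Vcan -2.41 to 0.54, Cx3cr1 -0.23 to 0.12, Nr4a1 -0.24 to 0.057, Treml4 -0.27 to 0.096 and Ace -0.29 to 0.048, for the 2 vehicle groups Vcan -0.35 to 0.29, for TBI within 200 mg/kg F13a1 -0.23 to 0.27 and Spn -0.069 to 0.32, for the interaction with day at 200 mg/kg Nr4a1 -0.084 to 0.30 and Treml4 -0.28 to 0.12, for the interaction with TBI Ace -0.15 to 0.41, Nr4a1 -0.36 to 0.058 and Treml4 -0.31 to 0.20. At the depth of Vcan, as low as 5 counts in a mouse, small differences were not detectable.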

Other observations

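Members of the same gene families as the 10 genes were measured too. Ly6c1, a near copy of Ly6c2, had log2 fold changes of -1.12 ± 0.20 at 100 mg/kg on Day 1 (adjusted p = 0.000203), -0.70 ± 0.33 at 200 mg/kg (adjusted p = 0.0746) and -0.69 ± 0.33 after TBI (adjusted p = 0.0953), close to those of Ly6c2. Ms4a6b, a gene of T cells and other leukocytes, fell in all 3 comparisons (-1.94, -1.81 and -1.94), as did Ms4a6c. Ms4a6d fell at 100 mg/kg (-1.31) and had -0.52 at 200 mg/kg and -0.28 after TBI, neither past the threshold. Treml1, a receptor of platelets, rose by 3.26, 3.46 and 2.55, and Treml2 by 2.42, 2.54 and 2.23, unlike Treml4, whose values with the same vehicle mice were 0.03, 0.22 and 0.60. Of the nuclear receptors, Nr4a3 fell after TBI (-1.55, adjusted p = 0.00151), and Nr4a2 had 0.27 (adjusted p = 0.694). All 3 comparisons use the same 6 vehicle mice.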
